A study of Mus musculus with 72 samples.

Results

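The comparison described here is whole brain against whole liver of newborn mice at P1 (1 day after birth). It was defined by sample labels: the 9 arrays labelled brain and the 9 labelled liver at P1 were taken, which is 18 of the 72 Affymetrix expression arrays of the study. All were males, the first generation bred from purchased inbred animals. The strains were C57BL/6J, called B6 here, DBA/2J, called D2, and 129S2, called 129, with 3 arrays in each of the 6 groups of strain and tissue. The labels name no engineered allele and no treatment. B6 and D2 stock came from one supplier and 129S2 stock from another, so strain and supplier cannot be told apart. The study's title asks how segmental copy number variation among these strains relates to tissue transcriptomes through development.

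At birth the mouse brain is still under construction: most neurons have been made and are growing axons and first synapses, whereas myelin and most astrocytes are yet to mature. The newborn liver does a pair of jobs. Its hepatocytes make plasma proteins and switch on the pathways that handle milk fat, glucose supply and ammonia, while islands of blood-forming cells, inherited from the fetal liver, still make red cells, granulocytes and platelets. In RNA of whole organs, fewer cells of a type and less RNA per cell cannot be told apart.

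Signals are given in log2 units after the 18 arrays had been quantile normalized together. This step was needed because the authors had normalized the brain and the liver arrays apart: 2.01 to 3.82% of values were equal to the last digit between arrays of the same tissue, and none between tissues. Tissue is therefore confounded with normalization, and differences between tissues are given as sizes, brain minus liver ± SD over 3 strains, with no p-value. A gene was counted when its mean was at least 2-fold higher in the same tissue in each of the 3 strains. Array profiles correlated at 0.9832 or more within brain, 0.9588 or more within liver, and 0.3636 to 0.4164 between tissues. In control probe sets at both ends of a transcript, the 3′ over 5′ difference for Actb was 0.45 to 0.76 log2 units on brain arrays and 0.76 to 3.21 on liver arrays. The D2 livers had the 3 highest values (3.21, 2.24 and 1.58), and the Gapdh control showed the same order of D2 livers (1.72, 0.94 and 0.82, against 0.52 or less on the other arrays). This measure of RNA integrity moved with tissue and with the D2 livers, and its part in the results was not tested.

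Of 13780 genes with a group mean above the median signal, 2698 (19.6%) were counted higher in brain and 2764 (20.1%) higher in liver. The sizes were large: 1395 genes were at least 4-fold higher in brain in each strain and 1291 in liver, 429 and 372 reached 16-fold, and 84 and 106 reached 64-fold. Only 3930 genes (28.5%) stayed within 1.5-fold in every strain. Sizes had a median SD over strains of 0.15 log2 units. A further 1673 genes reached 2-fold in the same direction in 1 or 2 strains only and were not counted. The 9 brain and 9 liver arrays did not overlap for 2693 of the 2698 brain genes and 2752 of the 2764 liver genes, which the rule for counting nearly fixes; over all genes tested they did not overlap for 67.6%. Without the D2 arrays, with 2-fold required in B6 and 129 only, the counts were 2835 and 2955. That rule asks for fewer strains, so higher counts nearly follow from it and say nothing about the part of the D2 arrays. On the values as deposited they were 4120 and 1748, so that 70.2% of counted genes were higher in brain instead of 49.4%. The median of all genes tested was -0.11 after joint normalization and 0.46 as deposited, and sizes below are to be read against the first value. It is not a neutral point, since 18 spike-in control probe sets had a median of -0.47 after joint normalization and -0.04 as deposited. Joint quantile normalization gives all arrays the same distribution, so the near equal shares of the tissues are partly set by it.

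Folds below are ratios of signal, not of transcript number. In 152 of the 226 counted genes chosen for naming, and in all 30 leading genes, the median of the lower tissue lay under the signal filter of 6.88. Such a fold is at best a lower bound, and the order of the leading genes depends in part on where each probe set's signal bottoms out. Probe sets of a gene also disagreed. Of 111 named counted genes with another probe set, 87 had one that differed the same way by 2-fold or more, and in 47 every other probe set gave a difference smaller by more than 1 log2 unit. In 24 genes no other probe set was 2-fold apart in that direction, so their counts rest on 1 probe set. They are Cnr1, Snap91, Tac1, Scn3a, Slc1a2, Gabra3, Fabp3, Spock2, Apod and Slc6a8 of the brain side, and Hsd17b13, Apob, Aldh1l1, Abcb1a, Ocln, Clec4g, Hand2, Hsd17b7, Sc5d, Slc16a1, Dnmt3b, Psmd9, Uqcrq and Dcc of the liver side.

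Genes of neurons led the brain side. Chl1, an adhesion molecule of growing axons, was at 12.91, 13 and 13.17 (lowest, median and highest of 9 arrays) in brain and at 3.49, 3.80 and 4.29 in liver, a difference of 9.18 ± 0.18 or 581-fold. Its 3 other probe sets gave differences of 0.02 to 5.63. Snap25, the SNARE protein of synaptic vesicle fusion, was at 12.29, 12.46 and 12.66 in brain and 3.25, 3.52 and 3.69 in liver, 491-fold apart. Neurod6, a transcription factor of excitatory cortical neurons, was at 12.10, 12.23 and 12.46 against 3.25, 3.36 and 4.04, 450-fold apart. For all 3 genes the tissues were separated by more than 7 log2 units, and the arrays of a tissue lay within 1 unit of each other.

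Signalling, RNA-binding and developmental genes followed. The cannabinoid receptor gene Cnr1 was 8.34 ± 0.04 log2 units higher in brain, and the neuronal RNA-binding protein gene Elavl2 8.31 ± 0.16. Gap43, which marks growth cones, was at 13.05, 13.22 and 13.55 in brain and 4.90, 5.09 and 5.24 in liver. Sox2, a transcription factor of neural stem cells and glia, was 283-fold higher in brain. Gad1, which makes the transmitter GABA, was at 11.68, 11.99 and 12.17 in brain and at 3.81, 3.90 and 4.27 in liver, 261-fold apart. The remaining genes of the leading 15 were the clathrin assembly gene Snap91 (243-fold), Csrnp3 (232-fold), Ttc9 (227-fold), the vesicle protein gene Synpr (202-fold), Rab6b (195-fold), the glutamate receptor gene Grm5 (188-fold) and the kinesin gene Kif5c (184-fold).

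The liver side was led by genes of hepatocytes mixed with genes of blood cells. Bhmt2, an enzyme of homocysteine methylation, was at 3.44, 3.65 and 3.97 in brain and 11.99, 12.19 and 12.34 in liver, a difference of -8.53 ± 0.20 or 369-fold. Cyp3a25, a drug- and steroid-metabolizing cytochrome P450, was 337-fold higher in liver (13.18, 13.58 and 13.82 against 4.78, 5.09 and 5.70 in brain). Lcn2, an iron-scavenging protein of neutrophil granules, was at 11.94, 12.28 and 12.79 in liver and 4.03, 4.22 and 4.28 in brain, 280-fold apart. Neither tissue's arrays came within 6 log2 units of the other's for these 3 genes.

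Plasma proteins, platelet and red cell genes made up most of the rest. Serpina7, which encodes the thyroxine carrier of plasma, was 278-fold higher in liver. Its liver arrays spread from 10.31 to 11.99, more widely than those of Bhmt2. The others were Cyp2d10 (262-fold), the protease inhibitor gene Stfa2l1 (246-fold), the platelet chemokine gene Ppbp (237-fold), the clotting factor genes F13b (223-fold) and F10 (193-fold), the apolipoprotein gene Apof (218-fold), the lipid droplet gene Hsd17b13 (216-fold), the glucuronidation gene Ugt2b5 (208-fold), Cyp3a16 (203-fold), and the erythroid genes Hemgn (206-fold) and Rhag (199-fold). Cyp3a, Cyp2d, Ugt2b and stefin genes have close copies, and a probe set may also detect a copy.

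**Figure D1:**
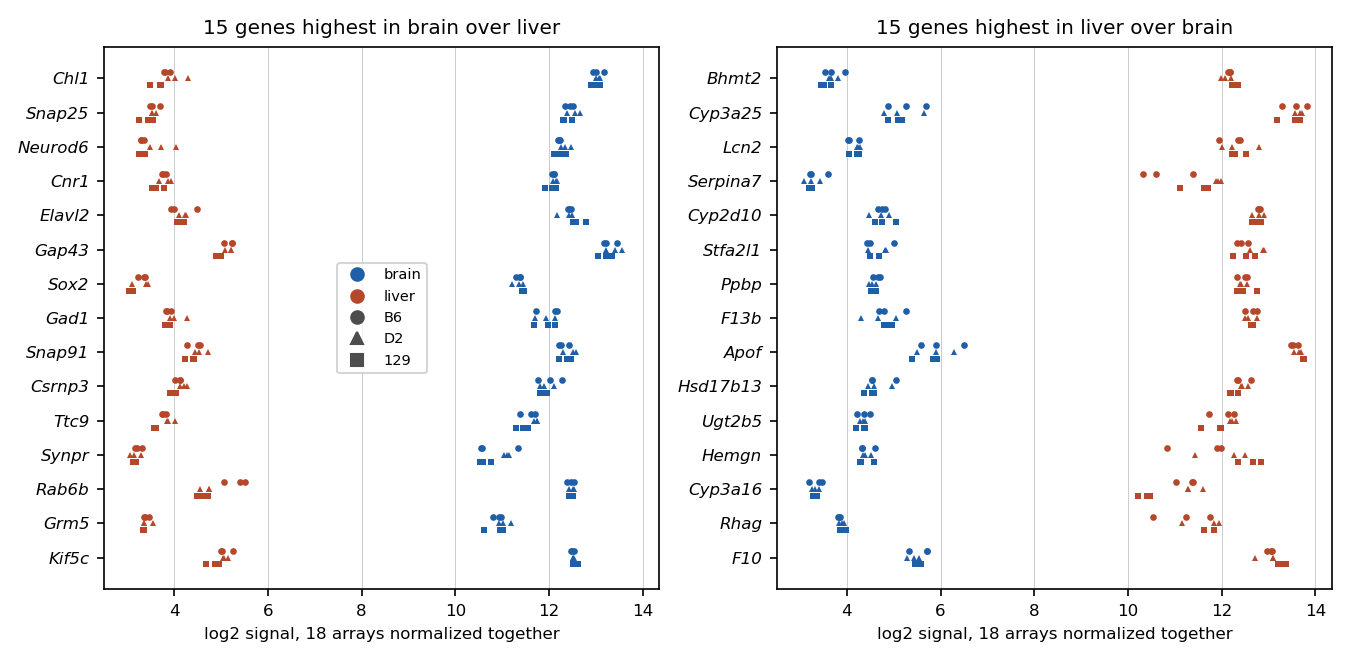
Log2 signal (x axis) of the 15 genes with the largest difference in each direction, 1 point per array; colour gives the tissue and shape the strain. For each gene the 9 brain and 9 liver points form separate groups, as for Chl1 (12.91 to 13.17 in brain, 3.49 to 4.29 in liver).

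Promoters of several of these genes are printed to show how they differ in letters. The 120 bases before the annotated start are given, from RefSeq's GRCm38.p6. Capitals mark TATAA within 50 bases of the start, or GTTAATNAT on either strand, which is a part of the motif of the hepatocyte factor HNF1 (ATNATTAAC is its reverse complement). Gad1 (chr2:70562009-70562128, plus strand) and Snap91 (chr9:86880709-86880828, minus strand) stand for brain. F13b (chr1:139501587-139501706, plus), the fibrinogen gene Fga (chr3:83026033-83026152, plus), Cyp3a16 (chr5:145469724-145469843, minus) and Ppbp (chr5:90768398-90768517, plus) stand for liver. Alb, the albumin gene (chr5:90460750-90460869, plus), and Fga are not among the leading genes, and all 7 were picked for their letters after their values had been seen.
Gad1: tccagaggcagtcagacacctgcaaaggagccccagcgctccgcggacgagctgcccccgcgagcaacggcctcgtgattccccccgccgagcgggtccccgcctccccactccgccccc
Snap91: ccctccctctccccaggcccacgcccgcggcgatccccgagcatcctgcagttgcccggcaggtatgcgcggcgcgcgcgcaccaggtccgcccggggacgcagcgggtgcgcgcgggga
F13b: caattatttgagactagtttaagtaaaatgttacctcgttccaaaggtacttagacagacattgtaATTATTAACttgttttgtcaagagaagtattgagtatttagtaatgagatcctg
Fga: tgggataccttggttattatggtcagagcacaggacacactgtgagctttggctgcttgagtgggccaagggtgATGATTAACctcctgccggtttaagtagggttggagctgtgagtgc
Alb: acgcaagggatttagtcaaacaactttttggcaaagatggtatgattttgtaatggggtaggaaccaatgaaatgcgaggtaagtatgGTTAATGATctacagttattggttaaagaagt
Cyp3a16: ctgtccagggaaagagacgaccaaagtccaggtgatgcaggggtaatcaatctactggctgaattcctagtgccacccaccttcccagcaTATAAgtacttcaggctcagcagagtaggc
Ppbp: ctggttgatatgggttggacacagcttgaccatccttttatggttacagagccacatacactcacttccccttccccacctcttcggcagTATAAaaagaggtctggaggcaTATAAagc
The printed stretches hold 13 CG pairs in Gad1 and 19 in Snap91, against 1 each in F13b, Fga, Cyp3a16 and Ppbp and 2 in Alb. The HNF1 letters begin 54 bases before the start in F13b and 46 in Fga, both on the minus strand of the promoter, and 32 in Alb. TATAA begins 30 bases before the start in Cyp3a16 and in Ppbp, where it occurs again at 8.

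Over sets of genes this could be described only in part. A promoter was listed for 78.3% of the genes counted in brain and 79.4% of those counted in liver, under the 80% set as needed, so a comparison of the counted sets is void. Some single lists had better cover. Promoters reach from 250 bases before to 50 after the start, and a gene with several was taken at their mean, or as holding a motif if any did. CpG observed over expected, which falls where CG pairs are rarer than the C and G content would give, had a median of 0.39 over 27025 genes, and of 0.72 over the genes tested, of which 80.4% had a promoter. TATAA was in 5.89% and 4.16% of these, and GTTAATNAT in 0.94% and 0.64%. Of 21 cytochrome P450 genes with a promoter 9 held TATAA, none held GTTAATNAT, and the median CpG ratio was 0.12. Of 16 coagulation genes none held TATAA and 2 held GTTAATNAT, with a ratio of 0.27, and of 15 neutrophil genes 4 held TATAA, with a ratio of 0.16. On the brain side, 19 synaptic vesicle genes held neither motif and had a median ratio of 0.67, and 16 cortical and interneuron identity factors had 0.76, with TATAA in 2. Other lists with at least 80% cover did not divide by tissue: among brain lists, 15 astrocyte genes had a ratio of 0.28 and 22 neuropeptide genes held TATAA in 6, and among liver lists, 15 hepatocyte transcription factor genes had 0.67 and 15 fatty acid oxidation genes 0.58. These are descriptions of letters, not of binding.

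Lists of genes for cell types and pathways were read as counts over all members on the array, against 14.8% and 15.2% of all 18194 genes represented (19.6% and 20.1% of those that passed the signal filter). Of 857 list entries on the array 820 passed the signal filter, and members below it stay in the denominators as not counted. All 22 genes of the neuronal cytoskeleton and growth cone were higher in brain, with a median difference of 6.10; Stmn3, which destabilizes microtubules, was 142-fold higher and the tubulin gene Tubb2b 151-fold. Tubb2b varied in liver, from 5.39 to 8.24. All 17 cortical and interneuron identity factors were counted (median 4.42), among them Tbr1 of deep-layer excitatory neurons (91.8-fold), Bcl11b (55.3-fold) and Dlx1 of interneurons (48.1-fold). Of 15 neuronal RNA-binding factors 14 were counted (median 3.21), including Celf5 (163-fold), Celf4 (57.2-fold) and Rbfox1 (43.2-fold).

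Synaptic genes were counted nearly as completely. Of 23 genes of vesicles and release 21 were counted (median 3.32), with Syt4 at 105-fold and Rab3c at 34.8-fold; Rab3a (0.80) and Syt11 (0.82) were not. All 12 genes of GABA synthesis, transport and reception were counted (median 4.62), with the receptor subunit genes Gabra5 at 98.3-fold, Gabra3 at 40.1-fold and Gabra2 at 34.3-fold. Under the mean of all probe sets of a gene, 9 of these 12 were counted. Of 19 postsynaptic and glutamate receptor genes 16 were counted (median 3.69), with Gria1 at 66.4-fold, Gria2 at 58.7-fold and the synaptic adhesion gene Nlgn3 at 52.6-fold. Of 16 channel and pump genes 13 were counted (median 3.64), with the sodium channel genes Scn3b (77.9-fold) and Scn3a (74.3-fold), the potassium channel gene Kcnd2 (41.3-fold) and Cacnb4 (22.8-fold). Of 25 genes of neuropeptides and secretory granules 19 were counted (median 3.83), with the granule gene Scg5 at 173-fold, Tac1, the substance P precursor, at 127-fold, Scg3 at 65.1-fold and Scg2 at 49.6-fold.

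Axon guidance and progenitor genes were split. Of 21 guidance and adhesion genes 17 were counted in brain (median 2.58), with Cntn1 at 74.7-fold, the matrix protein gene Ncan at 58.9-fold and Ncam1 at 46.0-fold. Dcc, the netrin receptor gene, was counted in liver (6.64 to 6.89 in brain, 8.04 to 8.33 in liver, -1.40 ± 0.11). The mean of all Dcc probe sets gave 2.68 in the other direction, so its probe sets disagree. Of 19 neural progenitor and early neuronal factors 12 were counted in brain (median 2.74): Pou3f3 was 143-fold higher, Zic1 140-fold and Sox11 63.4-fold. Nes (0.16), Dll1 (-0.10) and Notch1 (-0.32), often read as progenitor genes, were not counted.

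Of 17 genes of astrocytes and radial glia 12 were counted in brain (median 2.67), led by Fabp7, a fatty acid carrier of radial glia (88.7-fold), the glutamate transporter gene Slc1a2 (28.8-fold, where its 4 other probe sets gave -1.23 to 0.41), Bcan (26.7-fold) and Ptprz1 (22.5-fold). Aldh1l1 and Ndrg2, widely used as astrocyte markers, were higher in liver (5.31-fold and 2.49-fold). Gfap, the filament of mature astrocytes, differed by 0.82. Of 15 oligodendrocyte genes 6 were counted (median 0.39). They were the lineage factor genes Olig2 (41.4-fold), Olig1 (37.0-fold) and Nkx2-2 (2.70), with Cldn11 (9.89-fold), Gpr17 (7.59-fold) and Pdgfra (1.43). The myelin genes Mbp (0.45), Mobp (0.26) and Mag (-0.85) were not counted, and Mog lay below the signal filter in both tissues.

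Of 14 genes of brain endothelium and its barrier 4 were counted in brain, led by the thyroid hormone carrier gene Slco1c1 (52.2-fold), Spock2 (19.6-fold) and the lipid transporter gene Mfsd2a (5.94-fold). As many were counted in liver: the tight junction gene Ocln (6.14-fold), the efflux pump genes Abcg2 (5.82-fold) and Abcb1a (2.68-fold), and Foxq1 (3.16-fold). Of 11 choroid plexus genes 4 were counted in brain, with Sostdc1 at 12.3-fold and Otx2 at 8-fold, and 2 in liver, with the clotting factor gene F5 at 89.8-fold and Calml4 at 7.20-fold. Ttr, made by choroid plexus and by hepatocytes, had medians of 14.44 in brain and 14.47 in liver. Both lie near the top of the signal scale, where a difference may be compressed, so equal amounts of RNA cannot be read from them. No microglia gene of 11 was counted in brain and 2 were counted in liver: Aif1 (6.24-fold) and Csf1r (4.39-fold), which all macrophages express. Gpr34, at a brain median of 5.50, differed by 1.68 and lay below the signal filter.

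**Figure D2:**
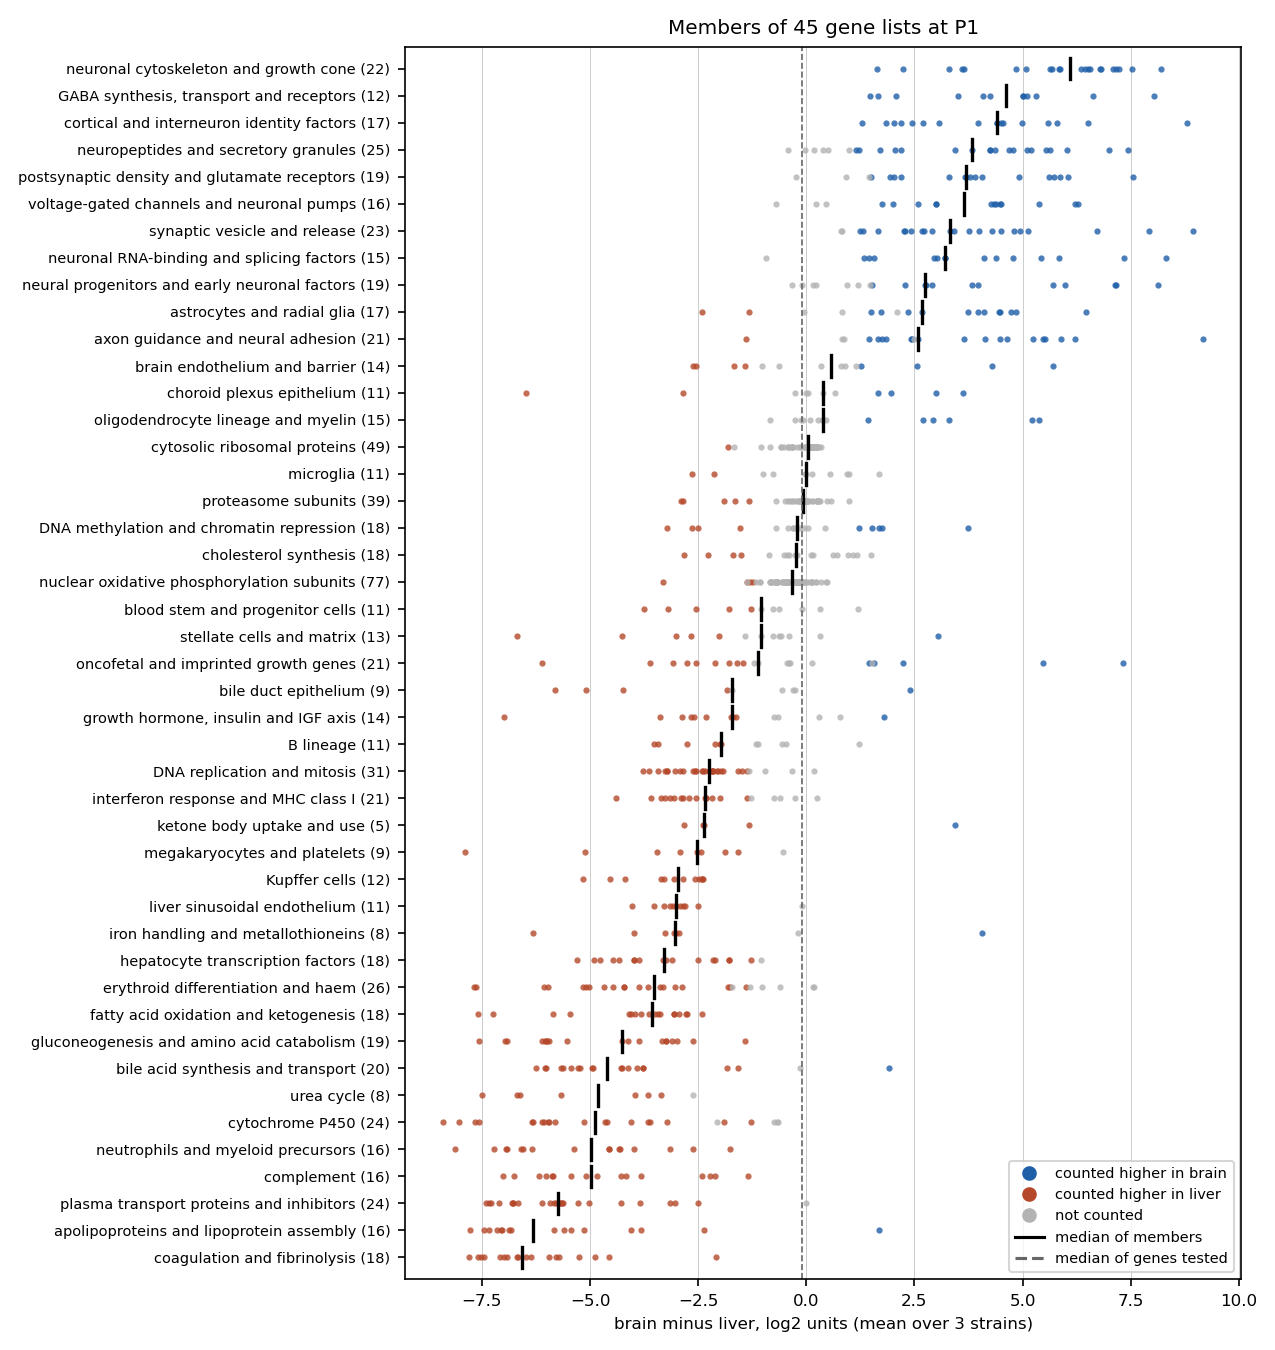
Brain minus liver difference (x axis, log2 units, mean over 3 strains) of every member on the array of 45 gene lists, ordered by the median (black bar); the number of members is in brackets and the dashed line is the median of genes tested, -0.11. Medians run from -6.58 for coagulation to 6.10 for the neuronal cytoskeleton, and ribosomal and proteasome genes lie around the dashed line.

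In liver, secreted proteins of hepatocytes were counted almost to the last member. All 18 genes of coagulation and fibrinolysis were higher in liver (median -6.58), with Proc, an anticoagulant protease gene, at 182-fold and the fibrinogen gene Fgb at 176-fold. Fgb was at 13.82, 14.05 and 14.16 in liver and at 5.77, 6.59 and 7.41 in brain. All 16 complement genes were counted (median -4.97), with Hc at 128-fold, Cfb at 108-fold, Mbl2 at 73.0-fold and C1ra at 64.7-fold. Of 24 plasma transport proteins and inhibitors 23 were counted (median -5.74), with Ambp at 169-fold, haptoglobin (Hp) at 161-fold, Itih4 at 158-fold and Kng1 at 139-fold. Alb, the defining gene of hepatocytes, had medians of 14.69 in liver and 11.65 in brain, a difference of -3.14 ± 0.45. Its liver signal is near the top of the scale, so this difference may be compressed. Of 16 apolipoprotein and lipoprotein genes 15 were counted in liver (median -6.33), with Apoc2 at 174-fold, Apoc4 at 161-fold and Apob at 141-fold. Apod was counted in brain (3.21-fold).

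All 19 genes of gluconeogenesis and amino acid breakdown were counted in liver (median -4.27), with the tyrosine enzyme gene Hpd at 190-fold, Bhmt at 122-fold and Cth at 69.6-fold. Of 8 urea cycle genes 7 were counted (median -4.82): Arg1 at 180-fold, Otc at 104-fold, Cps1 at 99.0-fold and the citrin gene Slc25a13 at 51.3-fold. Ass1, at a liver median of 6.55, lay below the filter. All 18 genes of fatty acid oxidation and ketogenesis were counted (median -3.57), with the peroxisomal gene Ehhadh at 191-fold, Cyp4a14 at 151-fold, Slc27a2 at 57.5-fold and Ppara, a master regulator of the pathway, at 44.3-fold. The liver arrays of Ppara spread from 9.01 to 11.64.

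Ketone bodies made in liver are burnt in brain. Oxct1, the enzyme that lets a tissue use them and that hepatocytes lack, was at 12.19, 12.40 and 12.58 in brain and 8.46, 8.94 and 9.20 in liver, 10.8-fold higher in brain. The other 4 genes of this list were counted in liver: the carriers Slc16a7 (7.12-fold) and Slc16a1 (5.21-fold), Bdh1 (5.18-fold) and Acat1 (-1.33).

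Of 24 cytochrome P450 genes 20 were counted in liver (median -4.89), with Cyp2d26 at 190-fold beside those named above. Of 20 genes of bile acid synthesis and transport 18 were counted in liver (median -4.61), with the uptake carriers Slco1b2 (76.5-fold) and Slc10a1 (64.8-fold), the bile salt pump gene Abcb11 (65.8-fold) and Cyp8b1 (51.2-fold). Cyp7b1, an oxysterol hydroxylase that brain also uses, was 3.79-fold higher in brain (7.15, 7.41 and 7.49 against 5.09, 5.45 and 5.79). Of 18 hepatocyte transcription factors 17 were counted in liver (median -3.29), with the nuclear receptor gene Nr1i3 at 39.2-fold, Foxa3 at 29.8-fold, Hnf4a at 27.1-fold and Cebpa at 22.3-fold. As deposited, 14 of these 18 were counted.

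All 16 genes of neutrophils and their precursors were counted in liver (median -4.97). S100a9, a calcium-binding alarm protein, was at 13.49, 13.73 and 13.95 in liver and 6.16, 6.30 and 7.28 in brain, 148-fold apart, and Chil3 (124-fold) and S100a8 (122-fold) were alike. Of 26 erythroid and haem genes 20 were counted (median -3.53), with the band 3 gene Slc4a1 at 66.8-fold and the erythroid factor gene Nfe2 at 63.2-fold. The globin genes with a probe set of their own gave low signals: Hba-a1 (medians of 5.42 in brain and 5.24 in liver) and Hbb-bh1 (5.35 and 6.34) lay below the signal filter, Hba-x differed by 0.18, and the embryonic Hbb-y was counted at -1.39. Of 9 megakaryocyte and platelet genes 8 were counted (median -2.52), with Clec1b at 34.4-fold, Pf4 at 11.0-fold and Gp9 at 7.64-fold. Of 11 B lineage genes 6 were counted (median -1.97), with the antigen receptor genes Cd79b (11.4-fold) and Cd79a (6.71-fold), the recombinase gene Rag1 (10.8-fold) and Vpreb1 (4.35-fold). Of 11 stem and progenitor genes 5 were counted (median -1.04): Gfi1b (13.5-fold), Myb (9.10-fold), Spi1 (5.91-fold), Lmo2 (3.44-fold) and Runx1 (-1.28); Kit (1.19) and Cd34 (0.32) were not.

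All 12 Kupffer cell genes were counted (median -2.96), with Cd5l at 35.6-fold, the scavenger receptor gene Marco at 23.0-fold, the iron exporter gene Slc40a1 at 18.3-fold and Vsig4 at 10.2-fold. Of 11 genes of sinusoidal endothelium 10 were counted (median -3.01), with Oit3 at 16.4-fold, Clec4g at 9.79-fold and the scavenger receptor genes Stab2 (11.5-fold) and Stab1 (8.96-fold). Stab2 differed by -4.16 in B6, -2.15 in D2 and -4.24 in 129, and its brain arrays spread from 5.85 to 8.34. Of 13 stellate cell and matrix genes 5 were counted in liver (median -1.05), with Colec11 at 104-fold, Lrat, which stores vitamin A, at 19.3-fold and Hand2 at 8.06-fold. Rgs5, a pericyte gene, was counted in brain (8.20-fold). Of 9 bile duct genes 4 were counted in liver, with the keratin genes Krt18 (56.1-fold) and Krt8 (18.8-fold) and Cdh1 (34.4-fold), which hepatocytes express as well. Sox9 was counted in brain (5.25-fold), and Epcam differed by -0.27.

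Cell division genes were on the liver side. Of 31 genes of DNA replication and mitosis 27 were counted in liver and none in brain (median -2.24). Mki67, which marks dividing cells, was at 11.21, 11.76 and 12.40 in liver and 7.97, 8.45 and 8.61 in brain (10.8-fold). Cdc6, which licenses replication origins, was 13.7-fold higher in liver, Ube2c 12.5-fold and Birc5 9.57-fold. As deposited 22 of 31 were counted. The mean of the list lay between 9.87 and 10.52 on liver arrays, which also hold the erythroid list at 9.53 to 10.72, and between 7.80 and 8.16 on brain arrays; the part of blood-forming cells in this difference was not tested.

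Interferon-responsive and antigen presentation genes were higher in liver too. Of 21 genes 16 were counted (median -2.34), with Rsad2, an antiviral enzyme gene, at 21.0-fold, Usp18 at 12-fold, the class I light chain gene B2m at 10.3-fold and Ifit1 at 9.67-fold. Ifit1 spread from 6.97 to 9.56 in liver. The proteasome list split along the same line: 5 of its 39 genes were counted, all in liver, and 3 of them encode subunits of the immunoproteasome (Psmb8 at 7.41-fold, Psmb9 at 7.15-fold and Psmb10 at -1.33). The others were Psmd9 (3.73-fold) and Psma8 (3.12-fold), and the remaining subunits lay between -0.70 and 0.98.

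Housekeeping lists differed little. One of 49 cytosolic ribosomal protein genes was counted (Rps27l, 3.48-fold higher in liver), and the median of the list was 0.05. Of 77 nuclear genes of oxidative phosphorylation 4 were counted, all in liver (median -0.32): Cox6b2 (9.91-fold), Sdhd (2.59-fold), Uqcrq (2.49-fold) and Uqcr10 (2.36-fold). With each array centred on its median, the ribosomal median was -0.56 and 10 oxidative phosphorylation genes were counted. The proteasome median was -0.07, and 0.34 as deposited.

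Imprinted and growth genes divided between the tissues. Of 21 oncofetal and imprinted growth genes 5 were counted in brain and 9 in liver. Nnat, an imprinted membrane protein gene of neurons, was at 13.54, 14.02 and 14.16 in brain and 5.55, 6.60 and 7.51 in liver (161-fold), and Ndn was 44.4-fold higher in brain; Magel2 (2.23), Snrpn (1.56) and Meg3 (1.46) made up the rest. In liver, alpha-fetoprotein (Afp) was at 14.21, 14.32 and 14.38 against 7.38, 8.17 and 9.06 in brain (68.9-fold), followed by Gpc3 (12.3-fold), Dlk1 (-3.09), Grb10 (-2.76) and Igf2 (-2.54). Of 14 genes of the growth hormone and insulin-like growth factor axis 9 were counted in liver (median -1.72), with the binding protein genes Igfbp1 (127-fold) and Igfbp2 (7.31-fold), the receptor gene Ghr (10.4-fold) and Lepr (6.38-fold). Igfbp5 was counted in brain (1.79), and Igf1r differed by 0.77.

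Iron and chromatin lists had genes counted on both sides, whereas after joint normalization the sterol list had them in liver only. Mt3 was the member of the iron list counted in brain. Of 8 iron and metallothionein genes 6 were counted in liver: Hamp, which encodes the iron hormone hepcidin, was 79.7-fold higher, with liver arrays from 8.06 to 13.89, and Hjv was 15.8-fold higher. Of 18 cholesterol synthesis genes 4 were counted in liver (Ebp at 7.04-fold, Sc5d at 4.81-fold, Lss at 3.25-fold and Hsd17b7 at 2.88-fold) and none in brain, with a median of -0.24. As deposited that median was 0.29, with 3 counted in brain and 2 in liver, and Lss gave 0.51 when its probe set was chosen on the P1 arrays alone. Of 18 genes of DNA methylation and chromatin repression 5 were counted in brain and 4 in liver. Tet1, which oxidizes methylcytosine, was 13.3-fold higher in brain, and the methyltransferase genes parted, Dnmt3a being at 1.68 and Dnmt3b at -2.64. Uhrf1, a partner of maintenance methylation in dividing cells, was 9.24-fold higher in liver, Mbd2 5.66-fold, and Rest, a repressor of neuronal genes, differed by -1.54.

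Members of the same enzyme or carrier family often had opposite sides. In 16 families a form was assigned to brain and another to liver. Both were counted on their own side in 7, the brain form alone on its side in 3 and the liver form alone in 6. The tally depends on these assignments, in which Fbp2, Gys1 and Pck2 stand for brain and Slc1a1 for liver. Among the 7 is the creatine pathway, whose members Ckb and Gamt are different enzymes and not forms of the same one. In 1 family the brain form was counted in liver, and in 1 the liver form was counted in brain. Lactate dehydrogenase Ldhb was 3.67-fold higher in brain and Ldha 3.19-fold higher in liver, with no overlap of arrays for either. Eno2 was 34.4-fold higher in brain, Pfkp 12.5-fold, Pkm 3.34-fold, Aldoc 3.30-fold and Hk1 2.19-fold; Pklr (-0.52) and Pfkl (-0.31) were not counted. The 2 other Pklr probe sets gave -3.15 and -2.16, so for pyruvate kinase the tally rests on the probe set chosen.

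For the other forms of this group, the glucose carrier gene Slc2a2 was 122-fold higher in liver, whereas Slc2a3 (0.68) and Slc2a1 (-0.62) were not counted. Of glycogen enzymes, Gys2 was 96.5-fold and Pygl 39.9-fold higher in liver, with Gys1 at -0.01 and Pygb at 0.77. Fbp1 was 125-fold higher in liver. Pck1 was 46.1-fold higher with liver arrays from 8.25 to 12.25, and Pck2, its mitochondrial form, 3-fold.

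Fat and nitrogen enzymes parted in the same manner. Fabp1 was 170-fold higher in liver (13.78, 14.15 and 14.21 against 5.99, 6.59 and 7.63), while Fabp3 was 56.2-fold higher in brain and Fabp5 differed by -0.13. Cpt1a, which admits fatty acids to mitochondria, was 11.3-fold higher in liver, and Cpt1c, found in neurons, 6.89-fold higher in brain. Acsl6 was 12.2-fold higher in brain and Acsl5 8.66-fold higher in liver. Arg1 and Arg2 lay on opposite sides, Arg2 being 8.34-fold higher in brain. Mat1a was 161-fold higher in liver, with Mat2b at -0.18.

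Further families concern splicing, metals, transmitters and water. Ptbp2, the neuronal splicing repressor, was at 12.20, 12.29 and 12.50 in brain and 9.07, 9.33 and 9.66 in liver (7.76-fold), while Ptbp1 was 4.43-fold higher in liver. Mt3 was 16.8-fold higher in brain, and Mt1 (9.55-fold) and Mt2 (8.06-fold) were higher in liver. Of the glutamate transporter genes, Slc1a3 (17.2-fold) and Slc1a1 (9.27-fold) were higher in brain, the latter being the form assigned to liver. Ckb was 12.2-fold higher in brain and Gamt, which makes creatine, 9.03-fold higher in liver. Aqp9 (50.7-fold) and Aqp8 (44.9-fold) were higher in liver. Aqp4, the astrocyte water channel gene, was not counted: it differed by 0.56 in B6, 2.30 in D2 and 3.40 in 129, and its liver arrays spread from 5.52 to 9.33.

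**Figure D3:**
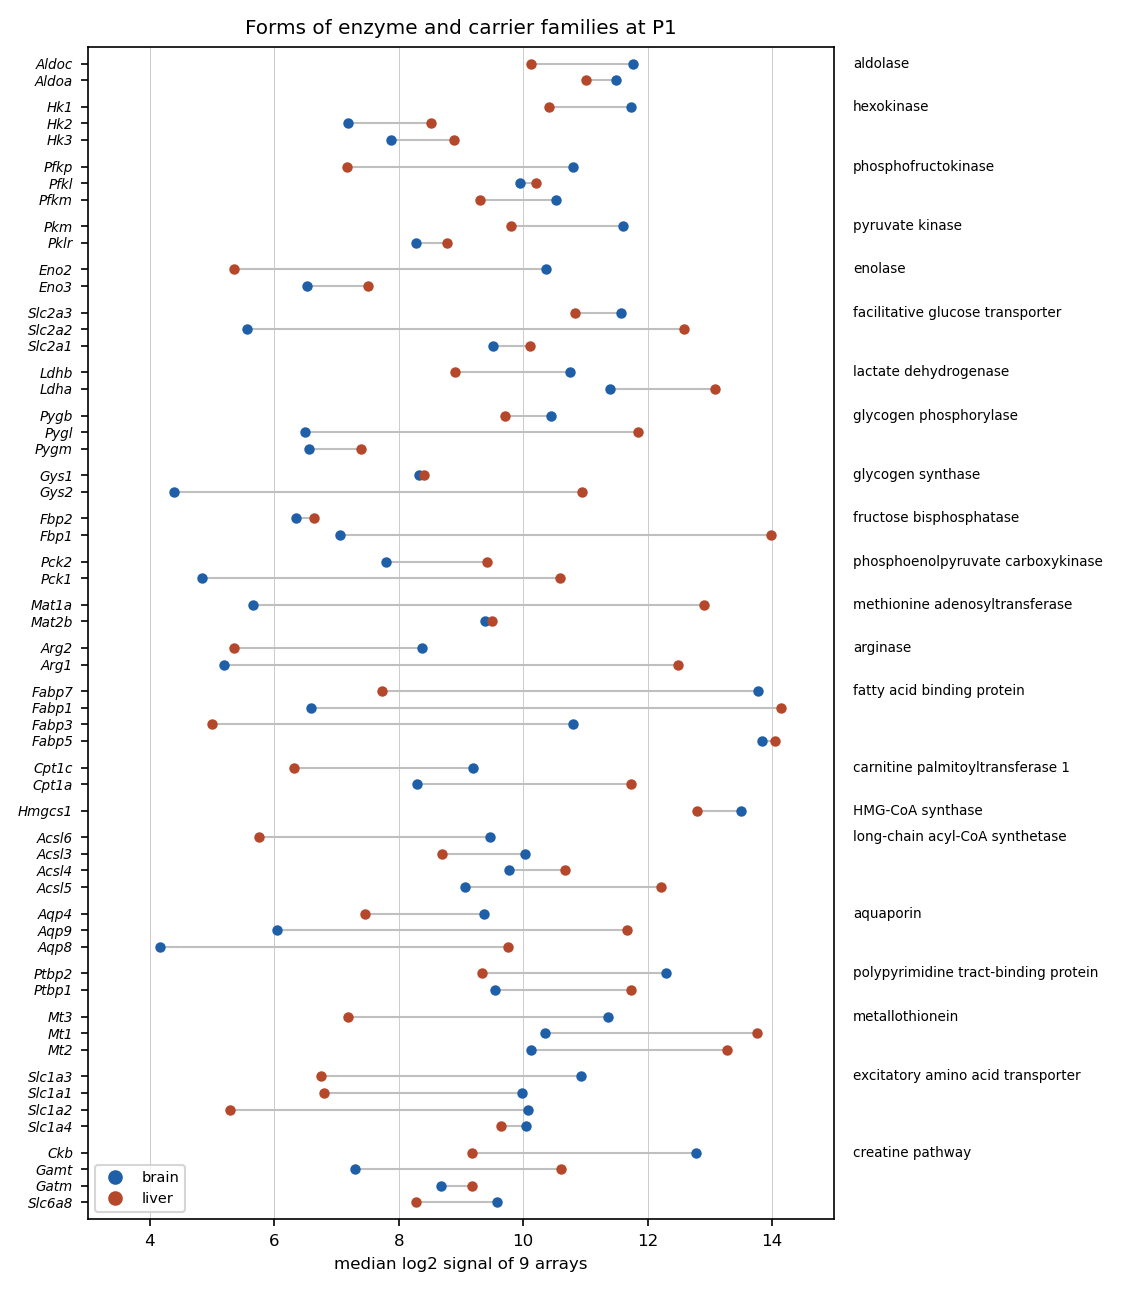
Median log2 signal of the 9 brain (blue) and 9 liver (red) arrays for each form of the enzyme and carrier families, with family names at the right. Fabp7 and Fabp1 lie on opposite sides (13.78 in brain and 14.15 in liver), whereas the 2 points of Fabp5 nearly coincide (13.83 and 14.04).

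The same count was made at the other stages, each with its 18 arrays normalized together, to place P1 in development; differences between stages were not tested. Counted genes were 17.3% and 17.2% (brain and liver) of those tested at E14.5, 20.1% and 21.2% at P7, and 23.6% and 24.4% at P90. Of the genes counted in brain at P1, 67.9% were counted at E14.5 (78.8% of that stage's list), 86.5% at P7 (82.9%) and 76.7% at P90 (65.0%). For liver the shares were 58.4% (69.7%), 85.1% (79.4%) and 65.0% (54.6%). P450 genes had a median of -1.31 at E14.5, with 10 of 24 counted, against -4.89 and 20 at P1. Gluconeogenesis and amino acid genes went from -1.19 at E14.5 to -4.27 at P1, with 10 and then 19 of 19 counted. Neutrophil genes had medians of -3.57 at E14.5, -4.97 at P1, -4.11 at P7 and -0.57 at P90, with 11, 16, 15 and 4 counted. Erythroid genes ran -4.34, -3.53, -2.42 and -0.36. Of the brain lists, oligodendrocyte genes had medians of -0.04, 0.39, 1.28 and 3.38, with 4, 6, 8 and 13 of 15 counted. Progenitor genes had medians of 4.19, 2.74, 2.27 and 0.52. All these medians are brain minus liver, so a change in either tissue or in the normalization of a stage enters them.

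**Figure D4:**
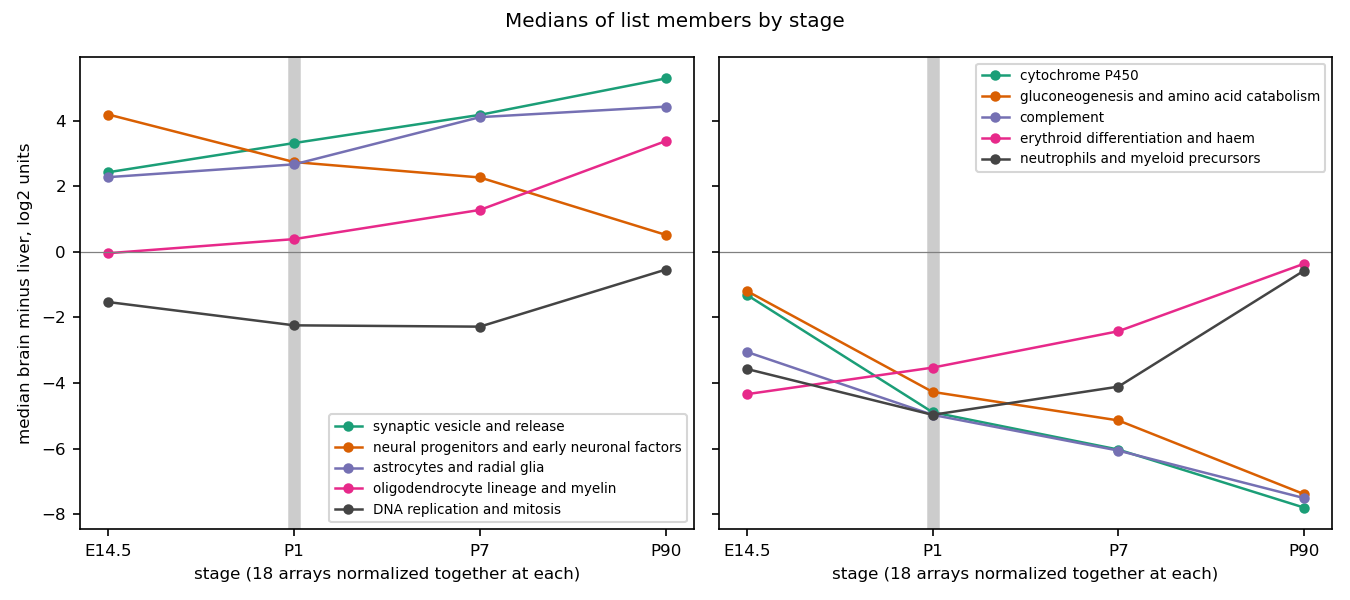
Median brain minus liver difference (y axis, log2 units) of 10 gene lists at E14.5, P1, P7 and P90, with P1 shaded; each stage was normalized on its own. Cytochrome P450 genes go from -1.31 at E14.5 to -4.89 at P1, and neutrophil genes from -4.97 at P1 to -0.57 at P90.

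Whether the difference between brain and liver depended on strain can be tested, since strains were compared within each normalization. A gene with signal in 1 tissue only can be called because strains differ in that tissue alone. An F test of the interaction of tissue and strain (limma, Benjamini-Hochberg adjusted p below 0.05, largest difference between strains at least 1.5-fold) called 1107 of 13780 genes (8.03%). The labels do not say that the arrays of a group came from separate animals, so these p-values measure the spread between arrays. Strain means were farther apart in liver for 948 of the called genes and in brain for 159. For 746 they were farther apart in the tissue with the higher mean. The share over all genes tested was not determined. The fit took 1 spread per gene for both tissues. Mean correlations of an array with its own group were 0.9829 to 0.991 in liver and 0.9893 to 0.9925 in brain. The counts therefore do not show that strains differ more in liver. For 402 genes the largest difference was between D2 and B6, for 500 between 129 and D2, and for 205 between 129 and B6. With the D2 arrays left out, 129 against B6 alone gave 214 calls, of which 211 were among the 1107 and 175 had the wider strain difference in liver. Leaving out B6 gave 841 calls, and leaving out 129 gave 592. The D2 livers are also the arrays with the highest 3′ over 5′ differences given above, and the part of this in the calls was not tested. Strain differences here are differences of probe set signal. Whether strains differ in sequence within the probes was not tested.

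Of 23 cytochrome P450 genes tested 11 were called, against 8.03% of all genes. So were 8 of 20 interferon and class I genes, 5 of 11 genes of sinusoidal endothelium and 4 of 10 B lineage genes. No member was called among 23 synaptic vesicle genes, 17 cortical and interneuron identity factors, 18 genes of fatty acid oxidation or 19 of gluconeogenesis. At a share of 8.03% few calls would fall in lists of such size. Cholesterol synthesis (18 tested) and neuronal RNA-binding factors (15 tested) had none either, so a lack of calls does not set these lists apart. The gene with the highest F was Cyp2b9, a P450 inducible by drugs. Its liver arrays were at 10.10, 10.10 and 10.33 in B6, 10.56, 10.57 and 10.95 in D2, and 5.68, 5.78 and 6.00 in 129. Brain arrays stayed between 6.68 and 7.07 in every strain, close to the signal filter, so the strain difference was seen in liver (limma adjusted p = 6.9e-11). The mean of 129 was under the signal filter in both tissues. Its neighbour in the family, Cyp2b13, had liver means of 7.72 in B6, 9.54 in D2 and 6.67 in 129, with brain means from 6.65 to 6.70. These genes have close copies, which a probe set may also detect.

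In each of the 12 highest except Slc15a2, the means of 1 tissue lay at or under the signal filter of 6.88 in every strain. Signal there may be background, so these calls may rest on a strain difference in the other tissue alone. Among the 12 highest, 6 are known from immune cells or interferon responses, a grouping made after they were seen. Ifi202b, an interferon-inducible DNA sensor gene, had liver means of 5.26 in B6, 8.97 in D2 and 7.07 in 129, and brain means between 4.51 and 4.99. Xaf1, also interferon-inducible, followed the same order (6.89, 9.80 and 8.51 in liver, 5.25, 6.00 and 5.70 in brain). The mean of all Xaf1 probe sets reduced its largest difference from -2.16 to -0.40, and the gene was then not called. Trim30d was at 8.35 in B6 liver, 5.74 in D2 and 5.54 in 129. The cytotoxic lymphocyte genes Klrd1 (7.53, 5.41 and 5.82) and Gzma (10.35, 8.5 and 6.64) were highest in B6 liver, with brain means of 4.34 to 4.39 and 4.95 to 5.03. Pik3ap1, a signalling adaptor of B cells and macrophages, was at 8.02 in B6 liver against 11.12 in D2 and 11.04 in 129.

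The remaining 4 had other patterns. Soga3 differed between strains in brain: means were 10.67 in B6, 10.72 in 129 and 7.06 in D2, with liver means from 4.64 to 4.73. Rgs4, a regulator of G protein signalling in neurons, was at 10.08, 10.17 and 9.36 in brain of B6, D2 and 129 and at 5.03, 5.13 and 6.31 in liver. Slc15a2, a peptide carrier gene, differed in both tissues and in opposite directions, D2 having the highest mean in brain (10.11, against 8.68 in B6 and 8.94 in 129) and the lowest in liver (5.65, against 8.67 and 8.86). Rassf4 was at 10.70 in D2 liver against 7.59 in B6 and 8.01 in 129. Adjusted p-values of these 12 genes (limma) ran from 6.9e-11 to 6.9e-08. For the strain farthest from the others its 3 arrays did not overlap theirs in that tissue. The choice of genes by the highest F nearly fixes this lack of overlap, so it adds no support. Without the D2 arrays 9 of the 12 were called between 129 and B6; Soga3 (0.11), Slc15a2 (0.08) and Rassf4 (-0.65) were not.

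**Figure D5:**
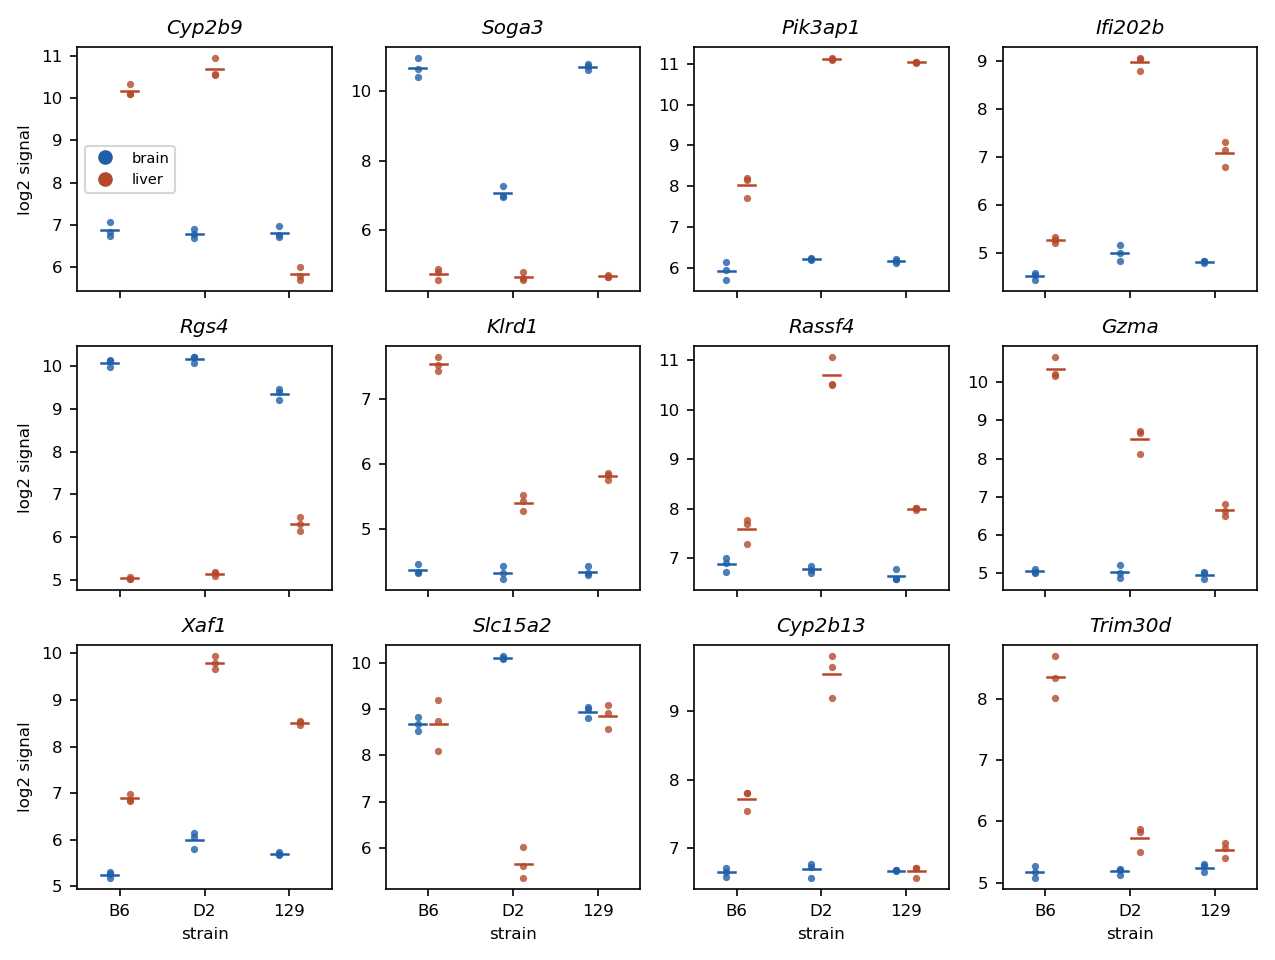
Log2 signal (y axis, a separate scale in each panel) of the 12 genes with the highest F for tissue by strain, by strain (x axis), with 3 arrays per group as points and the mean as a bar. Cyp2b9 is low in 129 liver (5.68 to 6.00) and Soga3 is low in D2 brain (6.95 to 7.27).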

How the data were processed

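Per the labels, total RNA of whole brain and liver was extracted with TRIzol and RNeasy columns, labelled with biotin and hybridised to Affymetrix arrays. The authors deposited log2 signals of 45101 probe sets made with RMA, per the submitters' processing notes; the version is not given in the sources used here. The 18 P1 arrays were quantile normalized together. The platform annotation gave a single gene symbol for 34958 probe sets; 932 had several and 9211 had no symbol. Genes (18194) took the values of the probe set with the highest mean over the 72 arrays, and 13780 had a group mean above 6.88, the median of all values. The number of arrays limits the precision. The interaction was fitted with limma 3.58.1 in R 4.3.3 (lmFit with a mean for each of 6 groups, eBayes, 2 contrasts per gene), and other steps used Python 3.11.15. Both procedures were also run on simulated data. In the simulation for sizes few genes differed between tissues, unlike here. It therefore cannot show how joint normalization affects the counts.

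Gene lists (45, with 924 entries, of which 67 were not analysed here), families and alternatives were chosen with earlier results of these data known. The text names the 15 highest and 15 lowest counted genes whose arrays do not overlap, up to 4 counted members of each list with the largest difference and any counted on the other side, the forms of each family, and the 12 called genes with the highest F; symbols that look like clone names were counted and not named. Other list members are named where a small count or a contrast within the list calls for it, chosen after their values were seen. Alternatives covered scaling, filter, probe set choice, the replicate block and each array left out. Leaving out a strain was added after seeing the data. Promoters came from a RefSeq table of GRCm38.p6. Identity between proteins of a family was not analysed here.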

Additional observations from a re-analysis of the deposited data

Results flagged for a closer look

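The 12 genes with the highest F are listed here because the brain minus liver difference was tested between strains (limma interaction, adjusted p from 6.9e-11 to 6.9e-08) and differed. The largest difference between strains, in log2 units, is given as the second strain minus the first. Between D2 and 129 it was 4.90 for Cyp2b9, 3.64 for Soga3 and 2.85 for Cyp2b13. Between B6 and D2 it was 4.45 for Slc15a2, -3.23 for Ifi202b, -3.21 for Rassf4, -2.82 for Pik3ap1, -2.16 for Xaf1 and 2.07 for Klrd1. Between B6 and 129 it was 3.63 for Gzma, 2.88 for Trim30d and -2.01 for Rgs4.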

How the results depend on the processing

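The counts of 2698 genes in brain and 2764 in liver were 4120 and 1748 on values as deposited and 5450 and 4763 when all probe sets were counted singly; the other alternatives kept both within 1.5 times. Leaving out each array gave 2674 to 2711 in brain and 2731 to 2785 in liver. The interaction count of 1107 was 214 without D2, 592 without 129 and 841 without B6, fits with fewer arrays and a single contrast. Leaving out each array gave 824 to 1237, and the other alternatives 817 to 1405. Named differences reversed for 2 genes: Dcc gave 2.68 with the mean of its probe sets, and Lss 0.51 with the probe set chosen on the P1 arrays; the cause was not tested. Of 289 named sizes and list medians, 235 moved by more than their spread (1 SD) on values as deposited, 122 with the mean of all probe sets, 92 with median centring and 69 with all 72 arrays normalized together, with no sign turned beyond those 2 genes among counted genes. Same-numbered brain and liver arrays of a strain deviated together in 7 of 9 pairs (correlation above 0.1), and 7 of 9 correlated best with their own number, the exceptions being 2 B6 pairs. No label ties the numbers to animals and not every pair exceeded 0.1, so the numbers were not taken as a pairing, although those of D2 and 129 all matched. With the replicate block the counts were 2328 and 2299 (2-fold in each of 9 pairs), and 1238 genes were called for the interaction, 1005 of them among the 1107. As deposited, 937 of the 1100 called genes had the wider strain range in liver. Spike-in control probe sets (18) had a median brain minus liver difference of -0.47 after joint normalization and -0.04 as deposited. A second usable probe set was counted the same way for 65.2% of 1288 brain genes and 62.2% of 1021 liver genes. In 1304 brain genes and 1285 liver genes the lower tissue's mean lay under the filter.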

Other observations

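Chromosomes differed in their share of counted genes. On the X chromosome 29.7% of 424 genes tested were counted higher in brain and 14.4% higher in liver. Chromosome 19 had the opposite balance, with 13.4% in brain and 25.8% in liver of 485 genes, and chromosome 12 had 24.6% and 16.1% of 483. Over all genes tested the shares were 19.6% and 20.1%. These shares were not tested.

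Among called genes of the interaction, 233 of 1107 had strains on both sides of a zero difference between tissues. On values as deposited 204 did, and with median centring 229. Where zero lies depends on the normalization, so these are counts and not calls. The share over all genes tested was not determined, so the counts do not set the called genes apart.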
